A study of Mus musculus with 9 samples.

Results

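Cholesterol and fatty acid synthesis was described through 33 named genes: the enzymes of the mevalonate pathway, of the squalene and sterol steps and of fatty acid synthesis, the SREBP factors with their control proteins, a cholesterol transport protein, and the LXR receptor with its efflux targets. A gene counted as measured where a probe set of the array named it. Of the 33 genes, 28 had a probe set that named them alone, out of 30702 genes tested. A further 3 were read on a probe set that also names another gene (Tm7sf2 with Vps51, Srebf1 with Mir6922, Scd2 with Mir5114), and Acat2 and Nr1h2 were not analysed here. The set was named by function and not by the values of these arrays, but it was proposed with results of these data known.

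The arrays measured RNA of transferred pmel1 CD8+ T cells, mouse T cells that carry a transgenic receptor for a peptide of the melanocyte protein gp100. Naive congenic recipients received Thy1.1+CD8+ pmel1 cells, and all of them were then given 100 µg of hgp100 peptide intravenously with 400 µg of antibody. The combination group received 200 µg of the agonist anti-CD27 antibody AT124 with 100 µg of anti-PD-1 (RMP1-14) and 100 µg of anti-PD-L1 (10F.9G2). The anti-CD27 group received peptide and AT124, and the anti-PD-1/L1 group received peptide with both blocking antibodies, each mixed with 200 µg of isotype control antibody. Spleen cells were taken on day 4 and the Thy1.1+CD8+ cells were sorted from 3 individual mice per group, so there were 9 arrays. No group given peptide with isotype control alone was analysed here, so every difference is between treated groups.

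CD27 gives T cells a costimulatory signal, and PD-1, once bound by PD-L1, restrains their activation. A T cell that begins to divide needs sterols and fatty acids for new membranes, and it makes much of them itself from acetyl-CoA. The transcription factor SREBP2, encoded by Srebf2, drives most genes of cholesterol synthesis, and SREBP1, encoded by Srebf1, favours those of fatty acid synthesis; when sterols are scarce SCAP escorts both to the Golgi, where they are cut and released, and INSIG proteins hold SCAP back when sterols are plentiful. The LXR receptors work the other way: oxysterols activate them, and they induce the exporters ABCA1 and ABCG1 and the ubiquitin ligase MYLIP, which removes the LDL receptor.

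The sequence just before the gene start is shown for 5 members, because it is where SREBP and its partner factors are known to bind and because 4 of them are synthesis genes and the other is an efflux gene. Each run holds the 250 bases before the RefSeq start (GRCm38.p6), 5′ to 3′ on the gene's own strand. Capitals mark matches on either strand to the sterol regulatory element TCACNCCAC, to the NF-Y box CCAAT, which reads ATTGG on the other strand, and to the E-box CACGTG.
Hmgcs1: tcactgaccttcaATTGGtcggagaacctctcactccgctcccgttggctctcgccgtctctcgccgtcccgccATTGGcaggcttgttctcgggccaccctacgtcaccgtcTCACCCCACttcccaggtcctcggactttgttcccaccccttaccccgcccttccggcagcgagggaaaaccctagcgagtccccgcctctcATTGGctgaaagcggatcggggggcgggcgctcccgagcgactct
Idi1: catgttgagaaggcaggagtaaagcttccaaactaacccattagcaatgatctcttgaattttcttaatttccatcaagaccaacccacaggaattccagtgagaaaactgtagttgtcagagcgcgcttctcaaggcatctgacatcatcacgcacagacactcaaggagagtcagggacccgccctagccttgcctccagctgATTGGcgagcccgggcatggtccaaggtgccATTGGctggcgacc
Lss: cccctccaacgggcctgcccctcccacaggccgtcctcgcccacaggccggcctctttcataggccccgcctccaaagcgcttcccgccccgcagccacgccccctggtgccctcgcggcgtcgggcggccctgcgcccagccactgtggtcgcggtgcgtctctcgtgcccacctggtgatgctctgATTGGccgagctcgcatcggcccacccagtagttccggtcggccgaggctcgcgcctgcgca
Fasn: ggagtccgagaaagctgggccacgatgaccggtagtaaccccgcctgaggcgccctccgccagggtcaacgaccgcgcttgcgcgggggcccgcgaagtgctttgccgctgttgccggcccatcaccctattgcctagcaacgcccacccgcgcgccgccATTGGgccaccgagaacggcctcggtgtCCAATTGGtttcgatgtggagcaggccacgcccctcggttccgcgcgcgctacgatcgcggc
Abca1: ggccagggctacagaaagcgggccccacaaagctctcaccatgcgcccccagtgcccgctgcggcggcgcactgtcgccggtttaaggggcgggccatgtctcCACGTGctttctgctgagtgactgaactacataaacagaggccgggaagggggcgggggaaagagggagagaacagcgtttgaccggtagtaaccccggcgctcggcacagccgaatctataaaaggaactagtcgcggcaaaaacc
Hmgcs1 lies at chr13:119690101-119690350 (plus strand), Idi1 at chr13:8885356-8885605 (plus), Lss at chr10:76531355-76531604 (plus), Fasn at chr11:120824548-120824797 (minus) and Abca1 at chr4:53159896-53160145 (minus), these being the windows printed.

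Of the 33 members, 27 were in the RefSeq promoter table, with 35 windows. Hmgcs1, the cytosolic synthase at the head of the mevalonate pathway, was the member with a sterol regulatory element of exactly these letters, at position -137 counted back from the start, and 1.05% of all 32851 windows of this length held one. The NF-Y box, a frequent neighbour of SREBP sites, was in 21 of the 35 member windows, of 20 members, and in 33.8% of all windows. Hmgcs1 held 3 of them, at -237, -176 and -45, Idi1 held 2, Lss held 1 and Fasn held 3, of which 2 overlap in opposite directions. The E-box, which SREBP1 can also bind, was in 6 of the 35 member windows, against 6.02% of all windows, and Abca1 held it at -147. The GC box GGGCGG, the letters read by SP1 and not capitalised above, was in 25 of the 35 member windows and in 32.7% of all windows. For LXR, the direct repeat searched was exactly AGGTCA, any 4 bases and AGGTCA again. No member window held these exact letters, and 0.0152% of all windows did. LXR sites that depart from these letters would be missed, so their absence from these windows cannot be read from this search. Such matches describe the letters of these windows and nothing more.

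All levels below are the deposited log2 values of the array, in which a difference of 1 is a doubling, and each p is from limma, adjusted over all genes tested by the Benjamini-Hochberg method. A gene was called where the adjusted p was under 0.05. The anti-PD-1/L1 arrays stood apart from the other 6 throughout. Their background control probe sets averaged 4.06 ± 0.08 (SD, n = 3), against 3.27 ± 0.06 in the anti-CD27 group and 3.25 ± 0.04 in the combination, and their positive control probe sets averaged 5.75 ± 0.19, against 6.70 ± 0.02 and 6.81 ± 0.04. Their hybridization control probe sets averaged 11.18 ± 0.11, against 10.23 ± 0.04 and 10.17 ± 0.08. The ERCC control probe sets averaged 3.61 ± 0.05, against 2.85 ± 0.03 and 2.86 ± 0.03. The sorted cells carried their label: the CD8 T cell markers Cd8a, Cd8b1, Cd3d, Cd3e and Thy1 had group means from 7.41 to 11.84, while the means of B cell, myeloid, neutrophil, NK, CD4 and erythroid markers lay between 1.52 and 4.74. Among these markers of other cells Itgam was the single gene called between combination and anti-CD27, with a difference of 0.61 (adjusted p = 0.00102), and its part in the results was not tested. Many values were tied exactly between arrays: 8 of the 31 members with a value had the same number on all 3 anti-CD27 arrays, so their SD there is 0. The cause of these ties was not tested.

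What PD-1/L1 blockade adds to CD27 stimulation was read from the combination and anti-CD27 arrays, and every member called there was higher in the combination. Acaca, Elovl6, Fdps, Idi1 and Lss rose in the combination against anti-CD27 alone, by 1.31-fold to 1.64-fold, and no member was called lower (limma). These were 5 of the 28 members with a probe set of their own, where 1.79% of all genes were called, 1.27% higher and 0.524% lower. At an unadjusted p under 0.05 (limma), 13 of the 28 were higher and 2, Abca1 and Abcg1, were lower. The share of all genes at that unadjusted threshold is not given here, so no weight is put on these counts. Over the 28 members the median difference was 0.15, and 22 of them lay above 0, against a median of -0.00 over all genes. Of all calls in this comparison 70.73% were higher, and 60.47% after quantile normalization.

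The fatty acid enzymes stood out first. Acaca encodes acetyl-CoA carboxylase 1, which makes malonyl-CoA and commits acetyl-CoA to fatty acids. Its level was 5.41, 5.36 and 5.41 on the anti-CD27 arrays and 5.94, 5.90 and 5.97 on the combination arrays. Every combination array lay above every anti-CD27 array, and the difference was 0.54 ± 0.06 (SE, adjusted p = 0.00539, limma), or 1.46-fold. Acaca was the member called under each of the 17 alternative settings tried, with adjusted p from 0.00263 to 0.0396.

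Elovl6, the elongase that extends palmitate to stearate, read 6.05 on all 3 anti-CD27 arrays and 6.53, 6.55 and 6.35 on the combination arrays. The groups did not overlap, and Elovl6 rose by 0.43 ± 0.06 (adjusted p = 0.0143). That call did not hold when any single anti-CD27 array, or combination array 1 or 2, was left out, with an adjusted p of 0.0777 at most. Scd2, a desaturase that turns saturated into monounsaturated fatty acids, was read on the probe set shared with Mir5114, at 7.96, 7.996 and 8.03 under anti-CD27 and at 8.42, 8.42 and 8.43 in the combination. The combination arrays were all higher and close together, and the probe set rose by 0.43 ± 0.07 (adjusted p = 0.0288, in a table of 31909 rows in which 1.23% were called higher). Its call did not hold with the sample number as a block, nor when any of the 6 arrays of these groups was left out (highest adjusted p = 0.147).

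Fasn and Acly, the remaining fatty acid enzymes, were not called. Fasn, the synthase that builds palmitate, read 6.77, 6.76 and 6.76 under anti-CD27 and 6.998, 7.09 and 7.10 in the combination. Its groups did not overlap, yet the difference of 0.30 ± 0.06 missed the threshold (adjusted p = 0.0602), and 5 alternative settings called it. Acly, which cleaves citrate to supply acetyl-CoA, read 7.64, 7.58 and 7.58 against 7.69, 7.73 and 7.77, a difference of 0.13 ± 0.06 (adjusted p = 0.514) between groups that did not overlap. All 4 fatty acid genes with their own probe set thus had every combination array above every anti-CD27 array, where 12.1% of all genes did, and their median difference was 0.36.

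**Figure D1:**
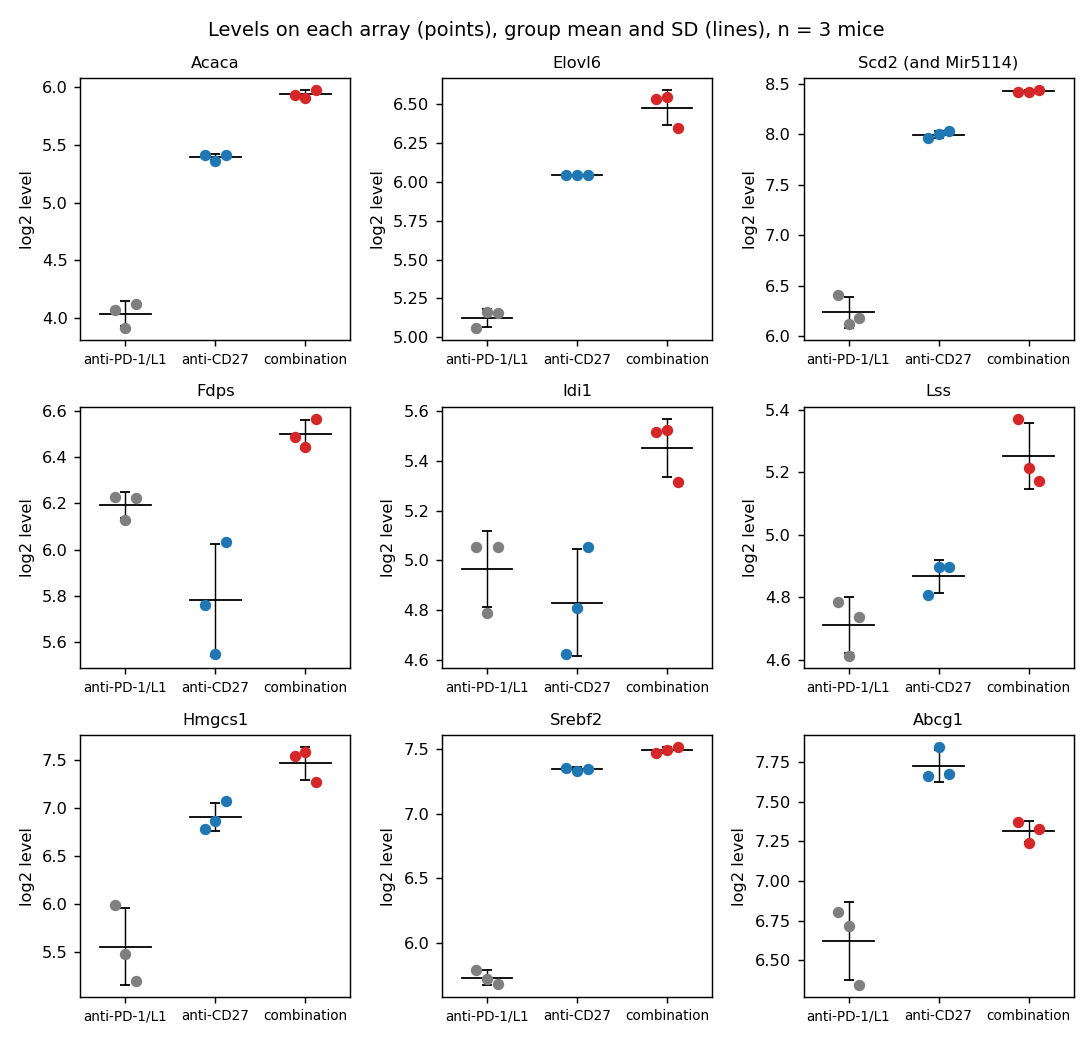
Log2 level (vertical axis, scaled separately for each gene) of 9 members on each array: points are single mice, long lines the group means and bars the SD, with n = 3 per group. Acaca, Elovl6, Scd2, Fdps, Idi1 and Lss lie higher on all combination arrays than on any anti-CD27 array, while Abcg1 lies lower, at 7.24 to 7.37 against 7.67 to 7.85.

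In the mevalonate pathway the calls fell at its end. Fdps encodes the synthase of farnesyl diphosphate, the branch point to squalene and to protein prenylation. It read 5.76, 5.55 and 6.03 under anti-CD27 and 6.49, 6.44 and 6.57 in the combination, without overlap, and rose by 0.72 ± 0.11 (adjusted p = 0.0153), or 1.64-fold. The call did not hold when anti-CD27 array 1 or any of the combination arrays was left out, where the highest adjusted p was 0.0837. Idi1 isomerises the isoprenoid unit that Fdps uses. It read 4.62, 4.81 and 5.05 under anti-CD27 and 5.52, 5.52 and 5.32 in the combination, again without overlap, and rose by 0.62 ± 0.12 (adjusted p = 0.0445). Idi1 had the highest adjusted p of the 5 calls, and 10 of 17 alternatives lost it, among them quantile normalization and leaving out each combination array, anti-CD27 array 1 or 2, or anti-PD-1/L1 array 3; the highest adjusted p was 0.179.

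Hmgcs1, whose window above held the sterol regulatory element, had a difference of similar size but a wider spread. It read 6.78, 6.87 and 7.07 under anti-CD27 and 7.53, 7.58 and 7.27 in the combination. The groups did not overlap, and the difference was 0.56 ± 0.18 (adjusted p = 0.277). The steps between Hmgcs1 and Idi1 differed by less. Mvk, the mevalonate kinase, differed by -0.10 ± 0.10, Pmvk, the next kinase, by 0.04 ± 0.06, and Mvd, the decarboxylase, by -0.04 ± 0.07, each with an adjusted p of 1. All combination arrays were lower for Mvk, while the groups met for Pmvk and Mvd. Over the mevalonate pathway 2 of 6 genes were called higher.

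Among the sterol steps, all 10 genes with their own probe set had a difference above 0, with a median of 0.17, but Lss alone was called. Lss encodes lanosterol synthase, which closes squalene epoxide into the first sterol. It read 4.81, 4.90 and 4.90 under anti-CD27 and 5.37, 5.21 and 5.17 in the combination, without overlap, and rose by 0.39 ± 0.07 (adjusted p = 0.0374). It was lost under 9 of 17 alternatives, among them quantile normalization and leaving out each of the 6 arrays of these groups, with a highest adjusted p of 0.176. Its neighbours in the pathway missed the threshold. Sqle, the squalene epoxidase just before it, differed by 0.43 ± 0.09 (adjusted p = 0.07), and Cyp51, the lanosterol demethylase just after it, by 0.63 ± 0.16 (adjusted p = 0.118). Sqle read 4.97, 4.95 and 5.01 against 5.39, 5.48 and 5.33, and Cyp51 read 5.43, 5.44 and 5.68 against 6.27, 6.24 and 5.93. In both genes the combination arrays were all higher.

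The later sterol enzymes differed little. Msmo1, Nsdhl and Hsd17b7, which act together in removing methyl groups from the sterol ring, differed by 0.17 ± 0.11, 0.15 ± 0.14 and 0.13 ± 0.09. Sc5d, the desaturase of the B ring, differed by 0.18 ± 0.12, and the last enzymes Ebp and Dhcr7 by 0.04 ± 0.11 and 0.02 ± 0.07. Fdft1, the squalene synthase, differed by 0.16 ± 0.06 (adjusted p = 0.433). The probe set of Tm7sf2, a sterol reductase, and Vps51 differed by -0.00 ± 0.05. In 8 of the 10 sterol genes every combination array lay above every anti-CD27 array, where 12.1% of all genes did. Among these 8, Hsd17b7 and Dhcr7 had the same value on all 3 anti-CD27 arrays, and Dhcr7 differed by only 0.02. With the positive control level as a covariate, 7 of the 10 differences stayed above 0 and the signs of Nsdhl, Ebp and Dhcr7 turned.

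The genes that control the pathway were not called in this comparison. Srebf2 read 7.36, 7.33 and 7.34 under anti-CD27 and 7.47, 7.49 and 7.51 in the combination. The arrays did not overlap, and the difference was 0.15 ± 0.05 (adjusted p = 0.262). Scap differed by 0.10 ± 0.05 (adjusted p = 0.636), and the probe set shared by Srebf1 and Mir6922 by 0.02 ± 0.04. Insig1 is itself a target of SREBP, and it differed the other way, by -0.10 ± 0.06 (adjusted p = 0.824), with 6.29, 6.30 and 6.25 under anti-CD27 against 6.24, 6.24 and 6.06. All combination arrays were lower for Insig1. Insig2 differed by 0.02 ± 0.07. Stard4, which carries cholesterol between membranes and is also induced by SREBP, read 5.29, 5.25 and 5.35 against 5.55, 5.61 and 5.51, a difference of 0.26 ± 0.06 (adjusted p = 0.0842) without overlap.

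**Figure D2:**
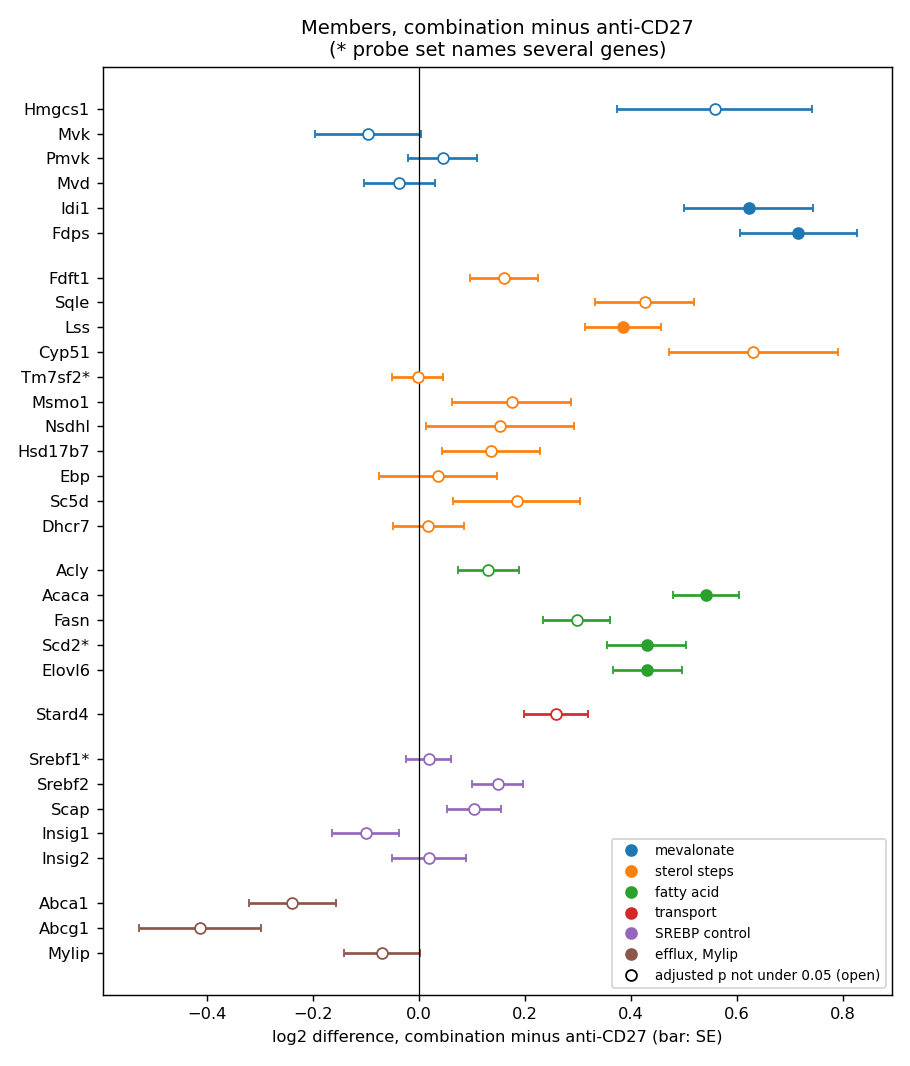
Log2 difference between combination and anti-CD27 (horizontal axis) for the 31 members with a value, by role; points are differences of group means (n = 3 each), bars the SE, filled points have an adjusted p under 0.05. Filled points, from Lss at 0.39 to Fdps at 0.72, all lie right of 0, and the 3 efflux genes lie left of it.

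The efflux side lay the other way without a call. Abcg1, which exports cholesterol to HDL, read 7.67, 7.85 and 7.68 under anti-CD27 and 7.37, 7.24 and 7.33 in the combination. All combination arrays were lower, and the difference was -0.41 ± 0.12 (adjusted p = 0.158). After quantile normalization it was -0.53 (adjusted p = 0.0354). Abca1, which loads cholesterol onto apolipoprotein A-I, read 3.74, 3.74 and 3.81 against 3.58, 3.45 and 3.54, again lower on all combination arrays, with a difference of -0.24 ± 0.08 (adjusted p = 0.306). These levels were 0.23 to 0.61 above the background control mean of their arrays, so little signal lies behind the Abca1 difference. Both exporters had groups that did not overlap, as 8.46% of all genes did with the combination lower. Mylip differed by -0.07 ± 0.07, and its groups shared a value. With the 6 arrays compared as the sole arrays of the fit, Abcg1 (adjusted p = 0.0271) and Abca1 (adjusted p = 0.0474) were called lower, while 9 synthesis or control genes were called higher. That fit called more genes throughout, with 1225 of all 30702 higher and 428 lower, or 5.38%, against 1.79% in the fit reported.

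Synthesis was then set against efflux on each array, as the mean over genes after each gene was centred on its mean over the 9 arrays. The 22 synthesis genes (the enzymes with their own probe set, Stard4 and Insig1) averaged 0.32, 0.30 and 0.25 on the combination arrays and 0.00, 0.01 and 0.09 on the anti-CD27 arrays. The 3 efflux genes averaged 0.01, -0.07 and -0.01 on the combination arrays and 0.20, 0.26 and 0.19 on the anti-CD27 arrays. Synthesis was thus higher and efflux lower on every combination array. Synthesis minus efflux was 0.31, 0.38 and 0.26 in the combination, and -0.19, -0.25 and -0.11 under anti-CD27. The efflux mean includes Abca1, which lay below the background control mean on all 3 anti-PD-1/L1 arrays, so no comparison with that group is made. No p is given for these means, since the genes averaged were chosen as a set. The median difference of the synthesis genes between combination and anti-CD27 was 0.18, and 0.14 after quantile normalization and 0.10 with the positive control covariate; for the efflux genes it was -0.24, -0.22 and -0.15.

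**Figure D3:**
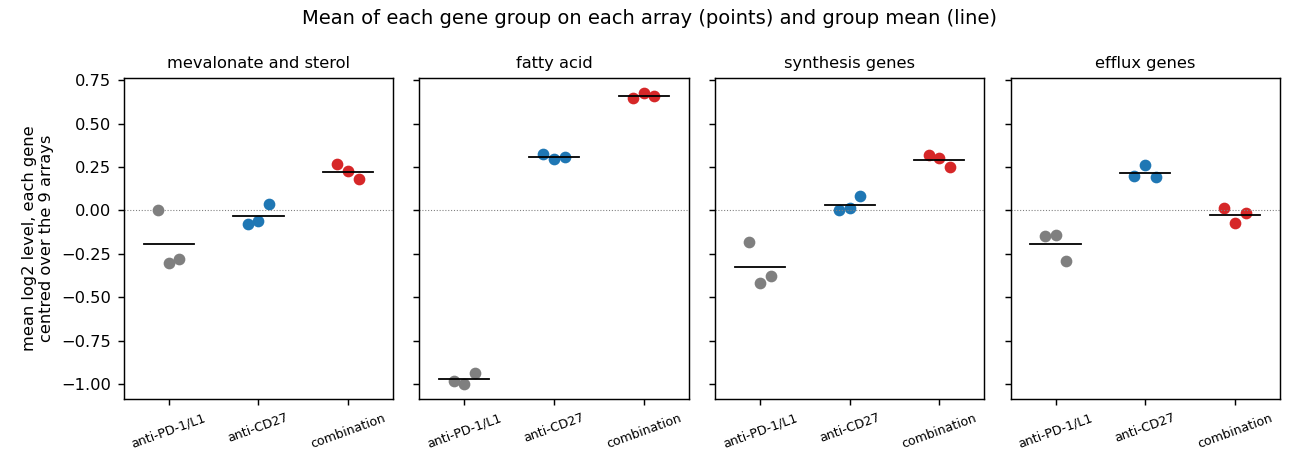
Mean log2 level of each gene group on each array (vertical axis, each gene centred over the 9 arrays; points single mice, line the group mean, 3 mice per group). The combination lies highest for synthesis genes, at 0.25 to 0.32, and below anti-CD27 for efflux genes, at -0.07 to 0.01 against 0.19 to 0.26.

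Markers of dividing cells differed between the same groups. The mean level of 6 such genes was 8.02, 8.005 and 8.62 on the combination arrays, 7.13, 6.68 and 7.11 on the anti-CD27 arrays and 5.20, 5.16 and 5.28 on the anti-PD-1/L1 arrays. Of the 6 genes, 4 rose in the combination against anti-CD27 (median difference of all 6, 1.29). They were Rrm2, Mcm3, Mcm5 and Ccnb2, and Mki67 and Top2a were not called. The part of dividing cells in the differences of the synthesis genes was not tested. In such bulk samples, more cells with the RNA and more RNA per cell cannot be told apart.

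Against anti-PD-1/L1 alone, both groups that received anti-CD27 had higher values of the fatty acid enzymes and of Srebf2. Markers of the CD8 T cells themselves moved as well: Cd3e rose by 2.06 and 2.17, Cd8b1 by 1.72 and 1.84, Cd8a by 1.32 and 1.56 and Thy1 by 0.98 and 1.03, in the combination and under anti-CD27, while Cd3d fell by 0.57 and 0.33. With the positive control level as a covariate, all 5 marker differences in the combination and 3 of the 5 under anti-CD27 lay below 0, and only Cd3d was called. The part of this shift in the differences of the members was not tested. These comparisons share the anti-PD-1/L1 arrays. Most genes of the array differed there, with 72.3% called between combination and anti-PD-1/L1 and 70.8% between anti-CD27 and anti-PD-1/L1, and the median of all genes was -0.26 in each. For the combination 19% of genes were called higher and 53.3% lower, and for anti-CD27 17.2% and 53.7%. Of the 28 members, 20 were called higher and 3 lower in the combination (median 0.45), and 13 higher and 3 lower under anti-CD27 (median 0.17). The members on shared probe sets were tested among 31909 rows, of which 72.1% and 70.5% were called. Of all calls 26.3% were higher in the combination and 24.22% under anti-CD27, and 46.27% and 46.4% after quantile normalization, so differences near 0 have no settled sign here.

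Acly read 6.08, 5.97 and 5.91 on the anti-PD-1/L1 arrays, below all other arrays. It rose by 1.74 ± 0.06 in the combination (adjusted p = 7.79e-08), or 3.35-fold, and by 1.61 ± 0.06 under anti-CD27 (adjusted p = 1.21e-07). Fasn read 5.42, 5.52 and 5.63, and rose by 1.54 ± 0.06 (adjusted p = 2.46e-07) and 1.24 ± 0.06 (adjusted p = 9.38e-07). The Scd2 probe set read 6.41, 6.12 and 6.18 and rose by 2.19 ± 0.07 and 1.76 ± 0.07, which is 4.56-fold and 3.38-fold. Elovl6 read 5.06, 5.16 and 5.16 and rose by 1.35 ± 0.06 and 0.92 ± 0.06. For each of these enzymes the anti-PD-1/L1 arrays lay apart below, the anti-CD27 arrays between, and the combination arrays highest.

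Acaca read 4.07, 3.92 and 4.13 on the anti-PD-1/L1 arrays, above the background control mean on 1 of the 3, so its signal there is close to background. On these values Acaca rose by 1.90 ± 0.06 in the combination (adjusted p = 7.88e-08) and by 1.36 ± 0.06 under anti-CD27 (adjusted p = 5.26e-07).

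The control genes moved with them in part. Srebf2 read 5.79, 5.72 and 5.68 on the anti-PD-1/L1 arrays and rose by 1.76 ± 0.05 (adjusted p = 3.85e-08) and 1.61 ± 0.05 (adjusted p = 6.7e-08), 3.38-fold and 3.05-fold. Scap read 6.02, 6.10 and 6.10, and 6.94 on each anti-CD27 array, and rose by 0.97 ± 0.05 and 0.86 ± 0.05. Neither group overlapped the anti-PD-1/L1 arrays in Srebf2 or Scap. The Srebf1 probe set read 5.74, 5.74 and 5.76 and rose by 0.30 ± 0.04 and 0.28 ± 0.04, but after quantile normalization its differences were -0.05 and -0.03. Insig1 and Insig2 were not called, with differences of -0.02 and -0.16 in the combination and 0.08 and -0.18 under anti-CD27. After quantile normalization Insig1 was called lower in both, at -0.44 (adjusted p = 3.66e-04) and -0.30 (adjusted p = 0.00391).

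Acaca, Acly, Fasn, Srebf2, Scap and the Scd2 probe set were the members called higher in both comparisons under every alternative, among them the fit with the positive control level as a covariate, in which the share of genes called fell to 6.26% and 7.89%. Elovl6 joined them in the combination, and in the anti-CD27 group it was lost under that covariate (adjusted p = 0.0602). The lowest difference that any alternative gave was 1.34 for Srebf2 and 1.17 for Fasn in the combination, and 1.28 and 0.97 under anti-CD27.

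**Figure D4:**
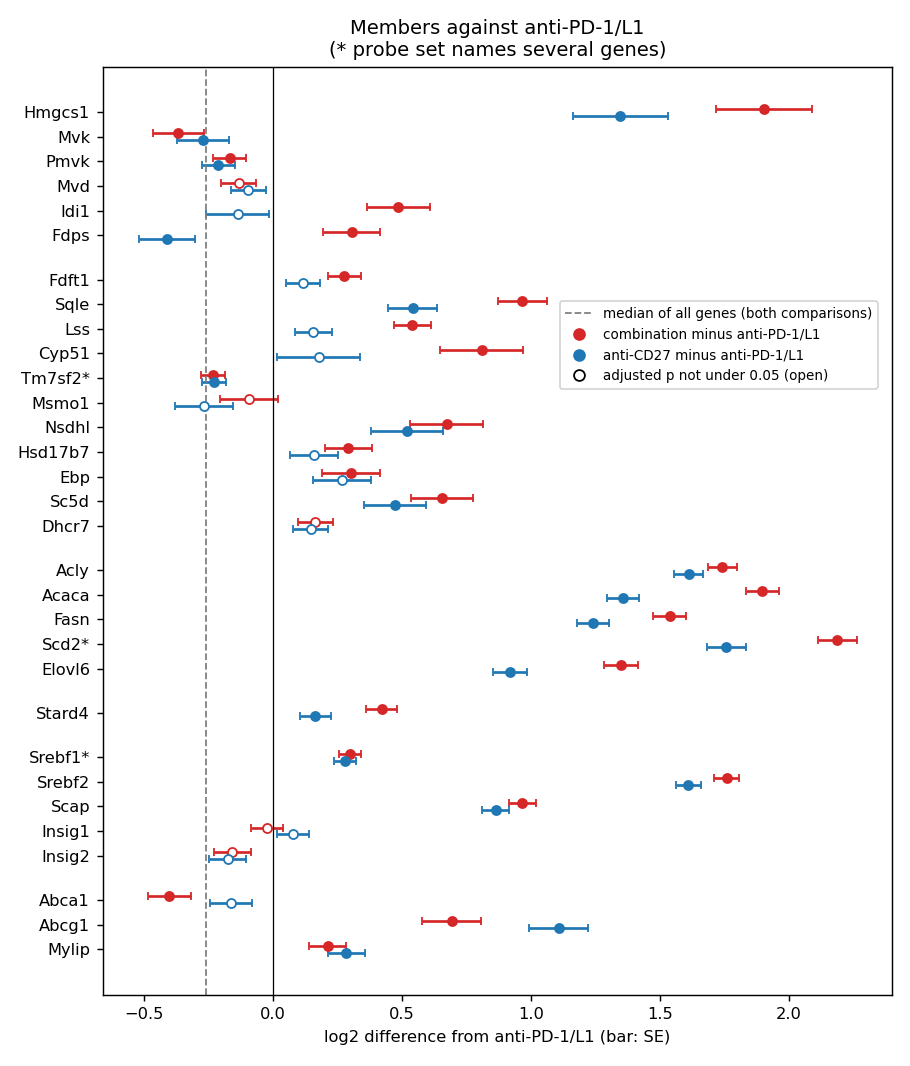
Log2 difference from the anti-PD-1/L1 group (horizontal axis) for the 31 members with a value, combination in red and anti-CD27 in blue; points are differences of group means (n = 3 each), bars the SE, filled points have an adjusted p under 0.05, and the dashed line is the median of all genes at -0.26. The fatty acid enzymes lie from 0.92 (Elovl6 under anti-CD27) to 2.19 (the Scd2 probe set in the combination), and Mvk and Pmvk lie left of 0 in both.

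The sterol pathway differed gene by gene from anti-PD-1/L1. Hmgcs1 read 5.99, 5.48 and 5.20 there, below all other arrays, and rose by 1.90 ± 0.18 in the combination (adjusted p = 3.31e-05) and by 1.35 ± 0.18 under anti-CD27 (adjusted p = 2.4e-04). Sqle read 4.61, 4.48 and 4.22 and rose by 0.97 ± 0.09 and 0.54 ± 0.09. Those anti-PD-1/L1 levels of Sqle were only 0.07 to 0.59 above the background control mean of their arrays. Nsdhl rose by 0.67 ± 0.14 and 0.52 ± 0.14 and Sc5d by 0.66 ± 0.12 and 0.47 ± 0.12. With the positive control covariate the differences of Hmgcs1, Sqle, Nsdhl and Sc5d all turned below 0 without a call, to -0.40, -0.07, -1.02 and -0.82 in the combination.

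Some steps rose from anti-PD-1/L1 in the combination and were not called under anti-CD27. Cyp51 rose by 0.81 ± 0.16 (adjusted p = 0.0018) and differed by 0.18 ± 0.16 under anti-CD27 (adjusted p = 0.333). Lss rose by 0.54 ± 0.07 and differed by 0.16 ± 0.07 (adjusted p = 0.0785), Idi1 rose by 0.49 ± 0.12 and differed by -0.14 ± 0.12, and Fdft1 rose by 0.28 ± 0.06 and differed by 0.12 ± 0.06. Hsd17b7 rose by 0.29 ± 0.09, a call that 3 of 17 alternatives lost. Ebp rose by 0.30 ± 0.11 (adjusted p = 0.0352), but its arrays met those of the anti-PD-1/L1 group and 10 of 17 alternatives lost the call, 8 of the 9 that leave out an array among them. On the anti-PD-1/L1 arrays Ebp stood only 0.08 to 0.72 above the background control mean. The difference between the treated groups is the direct comparison given first, in which Lss and Idi1 were called and Cyp51 and Fdft1 were not. With the positive control covariate none of these genes was called in the combination, and Cyp51, Fdft1, Hsd17b7 and Ebp turned sign. Under anti-CD27 the same covariate turned Cyp51, Lss, Fdft1, Hsd17b7 and Ebp below 0, and quantile normalization turned Fdft1 to -0.20 (adjusted p = 0.013) and called Lss higher (0.31, adjusted p = 0.00868) and Ebp higher (0.49, adjusted p = 0.0131). Dhcr7, Msmo1 and Mvd were called in neither comparison, but Msmo1 was called lower under anti-CD27 with the covariate (-1.36, adjusted p = 0.0446), and Mvd was called lower in both after quantile normalization (-0.55 and -0.47).

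Fdps took an order of its own in the deposited levels. It read 6.23, 6.13 and 6.22 on the anti-PD-1/L1 arrays, above all 3 anti-CD27 arrays and below all 3 combination arrays. Over the background control mean of its own array, Fdps stood 2.07 to 2.21 under anti-PD-1/L1 and 2.23 to 2.83 under anti-CD27. By that measure the order of these groups was reversed, and the combination stayed highest, at 3.22 to 3.27. Under anti-CD27 Fdps fell by 0.41 (SE 0.11, adjusted p = 0.00911), and in the combination it rose by 0.31 ± 0.11 (adjusted p = 0.0324). After quantile normalization the latter was -0.14, so its place against anti-PD-1/L1 in the combination depends on the scaling, and 8 of 17 alternatives lost that call. Mvk and Pmvk fell in both groups, by 0.37 and 0.17 in the combination and by 0.27 and 0.21 under anti-CD27. These falls are near the median of all genes, and 11 of 17 alternatives lost the call of Pmvk in the combination (adjusted p = 0.0427) and 10 of 17 that of Mvk under anti-CD27 (adjusted p = 0.0387). The Tm7sf2 probe set fell by 0.23 in each, and not after quantile normalization.

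Of the efflux genes, Abcg1 and Mylip rose against anti-PD-1/L1 and Abca1 could not be read. Abcg1 read 6.80, 6.72 and 6.34 there and rose by 0.69 ± 0.12 (adjusted p = 6.66e-04) in the combination and by 1.11 ± 0.12 (adjusted p = 5.49e-05) under anti-CD27. Its order was thus anti-PD-1/L1 lowest, combination between and anti-CD27 highest, with no overlap between neighbours. The combination call of Abcg1 was lost after quantile normalization and with the covariate, which gave -0.32, and the anti-CD27 call was lost with the covariate. Abca1 read 3.74, 4.00 and 4.03, below the background control mean on all 3 anti-PD-1/L1 arrays, so no difference from that group is read from it. Mylip rose by 0.21 ± 0.07 and 0.28 ± 0.07, and both differences turned below 0 after quantile normalization. Stard4 rose by 0.42 ± 0.06 in the combination and by 0.16 ± 0.06 under anti-CD27. Of 17 alternatives, 7 lost the call of Mylip in the combination and 8 that of Stard4 under anti-CD27.

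The wider pathway was followed in 40 further genes with a probe set of their own. Between combination and anti-CD27, 3 of the 40 rose and none fell, against 1.27% and 0.524% of all genes, and all 3 were fatty acid desaturases, of 13 genes of acetyl-CoA supply, desaturation and elongation. Fads2, the delta-6 desaturase of polyunsaturated fatty acids, read 3.50, 3.63 and 3.84 under anti-CD27 and 4.38, 4.52 and 4.63 in the combination. Its groups did not overlap, and it rose by 0.85 ± 0.11 (adjusted p = 0.0084), a call that all 17 alternatives kept (adjusted p up to 0.0499). Scd1 rose by 0.49 ± 0.07 (adjusted p = 0.011), from 3.66, 3.54 and 3.70 to 4.10, 4.09 and 4.19, and Fads1 by 0.43 ± 0.09 (adjusted p = 0.0494). Scd1 was lost when all probe sets of the gene were averaged (adjusted p = 0.392), and Fads1 under 10 alternatives. On the anti-CD27 arrays Fads2 stood 0.22 to 0.64 and Scd1 0.22 to 0.50 above the background control mean, so little signal lies behind these differences. limma called no gene among 5 of isoprenoid use, 4 of SREBP processing, 7 of cholesterol uptake, storage and movement, 7 of LXR and its targets and 4 of fatty acid oxidation. At an unadjusted p under 0.05 (limma), 2 isoprenoid genes and 1 oxidation gene were higher and 3 genes of LXR and its targets were lower. There, 0 of the SREBP processing or uptake genes passed. The share of all genes at that unadjusted threshold is not given here, so no weight is put on these counts.

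Against anti-PD-1/L1 the counts of the wider pathway are read beside all genes, of which 19% were called higher and 53.3% lower in the combination and 17.2% and 53.7% under anti-CD27. All 4 genes of fatty acid oxidation rose in both groups. Cpt1a, an enzyme of fatty acid entry to mitochondria, rose by 2.27 ± 0.18 in the combination and by 2.34 ± 0.18 under anti-CD27. All 5 genes of isoprenoid use rose in both, among them the prenyltransferase subunits Fnta (1.15 and 0.86) and Pggt1b (1.63 and 1.39). Of the 4 SREBP processing genes 3 rose, with Mbtps1, the protease that makes the first cut in SREBP, at 0.95 and 0.96. Of the 13 genes of supply, desaturation and elongation, 5 rose and 4 fell in the combination, and 3 rose and 5 fell under anti-CD27. Of the 7 genes of uptake, storage and movement, 4 fell and 0 rose in each, a share near that of all genes. Vldlr and Osbpl1a, which are among these falls, lay below the background control mean on every array, as did Me1, a fall among the supply genes. Scd1 and Fads2 lay below it on all anti-PD-1/L1 arrays. Little can be read from the differences of these genes. Of 7 genes of LXR and its targets, 5 fell in each group, Nr1h3, which encodes LXR alpha, by 1.02 and 0.86 and Apoe by 0.96 and 0.88. Over its array's background control mean, Nr1h3 stood 1.499 to 1.66 under anti-PD-1/L1, 1.29 to 1.45 in the combination and 1.51 to 1.54 under anti-CD27. Apoe stood 1.65 to 1.76, 1.42 to 1.68 and 1.53 to 1.66. Abcg4, another of the 5, lay below that mean on all 3 anti-PD-1/L1 arrays. The part of the background level in these falls was not tested. With the positive control covariate, none of the 4 oxidation genes and none of the 4 SREBP processing genes was called, and 1 of the 7 LXR genes was called lower in each comparison.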

How the data were processed

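The authors deposited 1 table of log2 values from a whole-transcript mouse array. The tools listed in the submitters' processing notes are RMA and oligo 1.38.0. RMA subtracts background, brings arrays to a shared distribution and summarises the probes of a probe set; whether all 9 arrays went through it together is not given in the sources used here. Of 72688 probe sets, 6732 were controls, 31258 named 1 gene, 1492 several and 33206 none. Replicates are individual mice, per the labels. Each gene was read on the probe set that named it alone, with the highest mean over the 9 arrays where there were several (441 of 30702 genes). No filter on low values was applied. limma 3.58.1 in R 4.3.3 was fitted with 1 mean per group on all 9 arrays (6 residual degrees of freedom), and p-values were adjusted over 30702 genes, or over 31909 rows where probe sets naming several genes were kept. With 3 mice per group an exact permutation test cannot go below p = 0.1, and the number of arrays limits the precision. Every member was named in the text; the rule and lists are by function. The members and lists were chosen with earlier results of these data known. Alternatives were quantile normalization, leaving out the 50% of genes with the lowest means, the mean of all probe sets of a gene, the groups compared alone in the fit, the sample number as a block, trend and robust priors, the mean of the positive control probe sets as a covariate, probe sets of several genes kept, and each array left out in turn. The fit was tested on simulated data with independent normal noise and 50 altered genes per fold. Such data lack the exact ties of the deposited values, so the rates found need not hold for these arrays. For combination against anti-CD27 the fit recovered 28% of 1.25-fold, 56% of 1.5-fold and 98% of 2-fold differences, with 8 false calls among 149. A gene not called may thus still differ by such small folds. Promoter windows came from RefSeq (GRCm38.p6).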

Additional observations from a re-analysis of the deposited data

How the results depend on the processing

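The count of called members between combination and anti-CD27 was 5 in the fit reported, 8 without the genes of low mean, 11 with these groups alone in the fit, and 1 to 10 with each array left out. The lowest count came without anti-CD27 array 1 or combination array 1 or 2, and the highest without anti-PD-1/L1 array 1. Over all genes, the share called was 1.79% in the fit reported, 5.17% without the genes of low mean and 5.38% with these groups alone. It ran from 0.567% to 3.99% with each array left out. The counts against anti-PD-1/L1 were 23 in the combination and 16 under anti-CD27. With the positive control covariate 6 were called in each, and leaving out arrays gave 18 to 22 and 13 to 22. The share of all genes called was 72.3% and 70.8% in the fit reported and 6.26% and 7.89% with the covariate. Leaving out arrays gave 64.6% to 73.8% and 62.2% to 72.4% of all genes. With the covariate the 6 of the combination were Acaca, Acly, Elovl6, Fasn, Scap and Srebf2, all higher; under anti-CD27 they were Acaca, Acly, Fasn, Scap and Srebf2, higher, and Msmo1, lower (-1.36, adjusted p = 0.0446, limma), which was not called in the fit reported. The covariate differs mainly between the anti-PD-1/L1 arrays and the others, so it removes much of that comparison by construction.

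The sample titles do not state whether the sample numbers pair the mice. Deviations of same-numbered arrays correlated from -0.196 to 0.161 over 9 pairs, and other pairs from -0.178 to 0.157. With 3 arrays per group these correlations cannot settle whether mice were paired. With the sample number as a replicate block, 3 members were called between combination and anti-CD27, and 22 and 15 against anti-PD-1/L1. Over all genes that fit called 1.23%, 70.7% and 68.8%.

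Signs turned as follows, and the cause was not tested. Between combination and anti-CD27, quantile normalization gave -0.015 for Dhcr7 and -0.024 for the Srebf1 probe set, and the covariate gave -0.042 for Dhcr7, -0.094 for Ebp, -0.048 for Insig2, -0.017 for Nsdhl, -0.0030 for Pmvk and 0.0057 for the Tm7sf2 probe set; none of these was called in any setting. Between combination and anti-PD-1/L1, quantile normalization gave -0.10 for Fdft1, -0.14 for Fdps, -0.23 for Mylip (adjusted p = 0.00674, limma), -0.054 for the Srebf1 probe set and 0.21 for Msmo1, and kept the sign of Insig1 but called it lower, at -0.44 (adjusted p = 3.66e-04, limma). Msmo1 ranged from -0.16 to 0.040 with each array left out, and lay above 0 without anti-PD-1/L1 array 1. The covariate there gave 0.45 for Abca1, -0.32 for Abcg1, -0.78 for Cyp51, -0.43 for Dhcr7, -0.98 for Ebp, -0.17 for Fdft1, -0.40 for Hmgcs1, -0.29 for Hsd17b7, -0.49 for Mylip, -1.02 for Nsdhl, -0.82 for Sc5d and -0.073 for Sqle. Insig1 ranged from -0.058 to 0.036 with each array left out, and lay above 0 without combination array 3. Between anti-CD27 and anti-PD-1/L1, quantile normalization gave 0.20 for Abca1, -0.30 for Insig1 (adjusted p = 0.00391, limma), -0.095 for Mylip, -0.030 for the Srebf1 probe set, -0.20 for Fdft1 (adjusted p = 0.013, limma), 0.044 for Msmo1 and 0.035 for Fads2. The mean of all probe sets of a gene gave -0.28 for Scd1 (adjusted p = 0.0455, limma). The covariate gave 0.61 for Abca1, -1.25 for Cyp51, -0.38 for Dhcr7, -0.89 for Ebp, -0.28 for Fdft1, -0.37 for Hsd17b7, -0.11 for Lss, -0.73 for Hmgcs1, -0.088 for Insig1, -0.35 for Mylip, -1.0 for Nsdhl, -0.86 for Sc5d, -0.39 for Sqle and 0.46 for Fads2. Low signal limits Abca1 in all groups, Fads2 and Scd1 under anti-CD27 and Acaca, Fads2 and Scd1 under anti-PD-1/L1. It also limits Sqle, Ebp and Msmo1 under anti-PD-1/L1. They stood 0.07 to 0.59, 0.08 to 0.72 and 0.03 to 0.55 above the background control mean there. Me1, Vldlr, Osbpl1a and Abcg4 were limited in all groups.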
